A study of Mus musculus with 8 samples.

Results

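The serpins, a superfamily of proteins that mostly inhibit serine proteases, were followed in kidneys of mouse embryos whose mothers had been given chlorpyrifos (CPF), an organophosphate insecticide. Members were all genes in the deposited tables whose symbol starts with Serpin, a clade letter from a to i and a number: 63 of 24151 genes. Pregnant ICR mice, 8 weeks old, received CPF at 5 mg per kg in DMSO, subcutaneously and daily on gestation days 7.5 to 11.5, or the same volume of DMSO alone. Kidneys came from 4 stages (E12.5 first, E18.5 last, with 2 days between neighbours), all after the last dose. There were 4 CPF libraries and 4 DMSO libraries, 1 for each agent and stage, made from total RNA. All groups share the strain, the injections and the solvent. The labels do not state how many embryos, litters or dams a library represents.

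A serpin presents a reactive loop as bait to its protease, which cuts the loop and is then trapped in an inactive complex. Several members have lost this function and serve as hormone carriers, as a folding helper for collagen or as signals outside the cell. Liver secretes the antithrombin, antiplasmin and antitrypsin types into plasma, where they limit clotting, fibrinolysis and elastase, while the clade b members stay inside cells and guard them against proteases of granules and lysosomes. The members were therefore grouped by role into plasma serpins made mainly by liver (14 genes), extracellular, stromal and vascular serpins (5), intracellular serpins (27), neural and pancreatic serpins (2), the collagen chaperone Serpinh1 (1) and other clade a serpins (14). The group names give general roles and do not tell which cells held a transcript in these kidneys.

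The values are TPM, a transcript abundance scaled by transcript length and library total, summed here per gene. Sequencing depth is not stated with them. From the spacing of low values, a single read on 1 kb of RNA equalled an estimated 0.0609 to 0.105 TPM, and 11714 to 12870 genes reached 1 TPM in a library. Rpph1 and Rmrp, 2 abundant non-coding RNAs, made up 19.3, 20.7, 21.8 and 21.3% of all TPM in CPF kidneys and 19.6, 23.6, 31.0 and 41.8% in DMSO kidneys, in stage order, so values of all other genes in the later DMSO libraries share a smaller remainder. The kidney markers (13 genes, Six2, Pax2 and Lrp2 among them) summed to 128 to 2372 TPM in CPF and 209 to 535 TPM in DMSO libraries, lower in CPF at 3 of 4 stages, and none of them was at 0 in all libraries. Genes with several RefSeq transcripts had a median of 0.142 TPM, against 3.64 TPM for genes with 1 transcript. For the 12 serpins of that kind a low value is therefore only a listed value. The E14.5 and E16.5 CPF libraries stand apart by their liver transcripts (Alb, albumin, 1668 and 2036 TPM, against 2.03 to 373 TPM in the other 6 libraries), and by adrenal cortex markers (8 genes; 678 and 679 TPM, against 15.6 to 65.4 TPM in the other 6). Differences without both stages are given for Serpina6, Serpina1b, Serpinc1, Serpind1 and Serpini1, which peak there in CPF. They are not given for every serpin with its highest value there.

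Promoter windows of 5 members are shown first, because their genes carry the patterns below: Serpina1b and Serpinc1 followed albumin, Serpina1d is a close copy of Serpina1b, Serpinf2 was called between the agents, and Serpini2 was high in 1 library. Each window runs from 250 bases before to 50 bases after the annotated start (RefSeq, GRCm38.p6), written 5′ to 3′ on the gene's strand. Capitals mark matches on either strand to GTTAAT, a half-site of the liver factor HNF1, or to CAAAGNNCA, a site of the HNF4 type. The windows are chr12:103738140-103738439, chr12:103773584-103773883, chr11:75439452-75439751 and chr3:75270029-75270328 on the minus strand and chr1:160978333-160978632 on the plus strand.
Serpina1b: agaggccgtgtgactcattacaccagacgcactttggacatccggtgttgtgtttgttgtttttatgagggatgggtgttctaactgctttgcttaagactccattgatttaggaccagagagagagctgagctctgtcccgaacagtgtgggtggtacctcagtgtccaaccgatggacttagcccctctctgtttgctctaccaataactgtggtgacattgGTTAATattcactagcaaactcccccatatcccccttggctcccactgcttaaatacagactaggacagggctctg
Serpina1d: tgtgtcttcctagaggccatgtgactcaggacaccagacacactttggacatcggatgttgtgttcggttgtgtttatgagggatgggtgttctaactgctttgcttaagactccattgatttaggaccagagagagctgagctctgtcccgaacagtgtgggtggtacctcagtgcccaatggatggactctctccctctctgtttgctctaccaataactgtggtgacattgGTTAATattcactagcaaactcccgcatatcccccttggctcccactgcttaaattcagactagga
Serpinc1: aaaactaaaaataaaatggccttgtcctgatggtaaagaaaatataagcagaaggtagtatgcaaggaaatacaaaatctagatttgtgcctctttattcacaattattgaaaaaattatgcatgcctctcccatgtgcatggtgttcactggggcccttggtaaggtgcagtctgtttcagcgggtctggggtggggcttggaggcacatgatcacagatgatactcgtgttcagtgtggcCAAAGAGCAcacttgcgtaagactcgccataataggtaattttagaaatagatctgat
Serpinf2: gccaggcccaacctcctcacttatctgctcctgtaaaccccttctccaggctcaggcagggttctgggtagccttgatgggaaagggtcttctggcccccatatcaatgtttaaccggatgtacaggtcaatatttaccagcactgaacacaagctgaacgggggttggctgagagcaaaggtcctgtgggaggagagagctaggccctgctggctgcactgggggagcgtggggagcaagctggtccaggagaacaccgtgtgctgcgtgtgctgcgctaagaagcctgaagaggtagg
Serpini2: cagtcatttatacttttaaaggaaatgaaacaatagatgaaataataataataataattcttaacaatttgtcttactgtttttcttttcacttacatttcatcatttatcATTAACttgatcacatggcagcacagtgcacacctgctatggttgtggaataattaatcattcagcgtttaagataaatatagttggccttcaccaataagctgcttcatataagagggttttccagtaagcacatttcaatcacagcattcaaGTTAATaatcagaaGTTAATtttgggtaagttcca
Serpina1b and Serpina1d each hold 1 GTTAAT, which begins 26 and 16 bases before the start, and promoter windows of Serpina1a to Serpina1e are 63.9 to 91.4% identical. In Serpinc1 a CAAAGNNCA match begins 8 bases before the start, the window of Serpinf2 holds neither motif, and that of Serpini2 has 3 GTTAAT matches. GTTAAT was present in 7.1% of the 32851 windows of this length and CAAAGNNCA in 6.36%; the 2 motifs do not overlap in any window shown. Of the 52 members with a full window, 11 held GTTAAT, including all of Serpina1a to Serpina1e, and 9 held CAAAGNNCA, Serpinc1 and Serpind1 among them. A match describes these letters and is not evidence of a bound factor.

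Plasma serpins made up most of the difference in summed serpin TPM between the agents. Summed over the 14 genes, they reached 30.7, 648, 939 and 472 TPM in the CPF libraries in stage order, against 4.35, 172, 27.2 and 55.5 TPM in the DMSO libraries. The CPF sum was above the DMSO sum at each of the 4 stages, but the ranges of the groups overlap. The extracellular serpins, by contrast, summed to 166, 176, 232 and 245 TPM in CPF against 179, 176, 180 and 171 TPM in DMSO libraries. In bulk tissue, more cells of a type and more RNA per cell cannot be told apart. Differences are given on the log2(TPM + 1) scale, which understates the change of low genes.

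**Figure D1:**
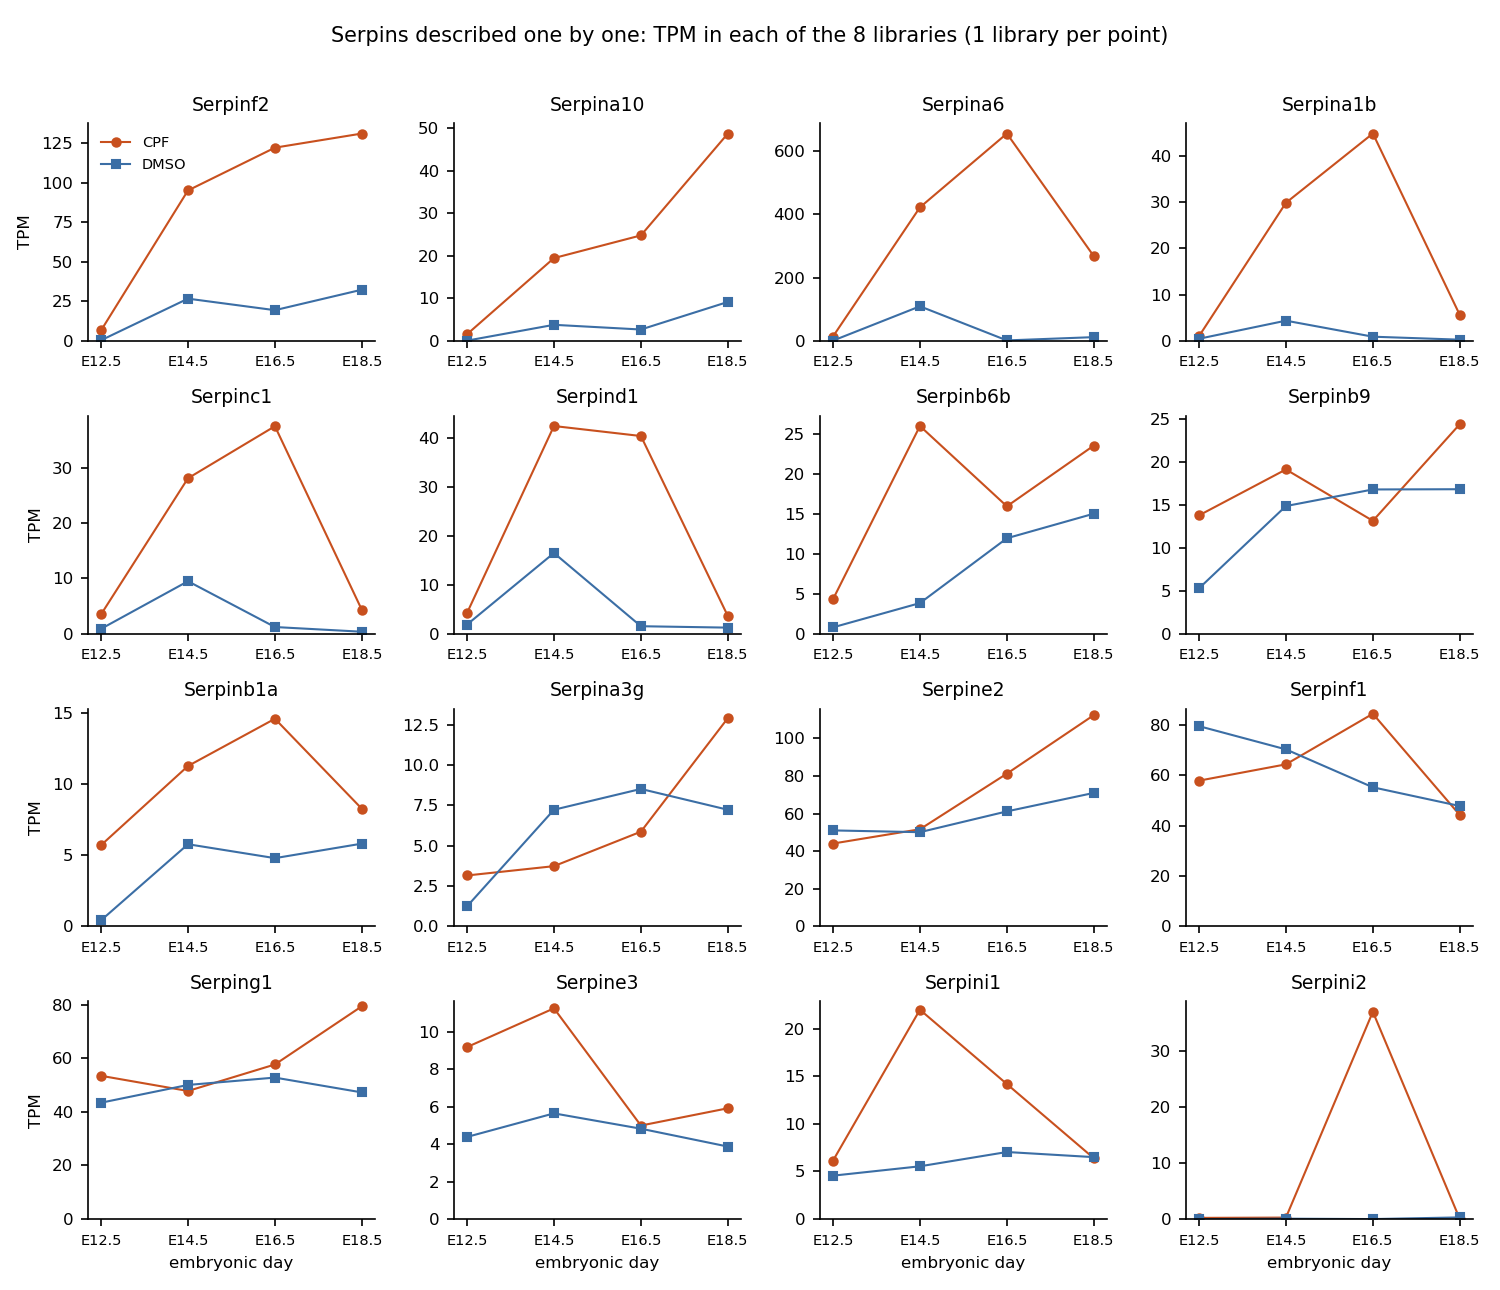
TPM (y axis, linear, from 0) of the 16 serpins described one by one at the 4 stages (x axis), with 1 library per point, CPF in orange circles and DMSO in blue squares. The plasma serpins in the first 6 panels are higher in CPF at all 4 stages, up to 656 TPM for Serpina6, while Serpine2, Serpinf1 and Serping1 stay between 43.4 and 112 TPM in both groups.

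Serpinf2, alpha-2-antiplasmin, which inhibits plasmin and so protects clots, had 6.56, 95.1, 122 and 131 TPM in CPF kidneys in stage order, against 0.369, 26.7, 19.4 and 32.4 TPM in DMSO kidneys. From E14.5 on, all CPF libraries lay above all DMSO libraries, and both groups were lowest at E12.5. Across stages Serpinf2 was higher in CPF by 2.21 ± 0.25 (log2, SE, n = 4 stage pairs; limma, Benjamini-Hochberg adjusted p = 0.00391). Serpina10, the protein Z-dependent inhibitor of coagulation factor Xa, had 1.55, 19.4, 24.8 and 48.7 TPM in CPF kidneys, against 0.0514, 3.77, 2.67 and 9.15 TPM in DMSO kidneys. Its lowest value, in the DMSO library of E12.5, stands for about 2.22 reads by the read-step estimate, and its groups overlap only through the low CPF value of E12.5. Serpina10 was higher in CPF by 2.12 ± 0.31 (limma adjusted p = 0.0222). These 2 genes were the only called members among the 24 that passed the filter of 1 TPM in 2 libraries, and none was called lower. Over all 13677 tested genes, 0.154% were called higher and 0.00731% lower, 0.161% in all. Both calls are lost without a filter, with quantile normalization, with libraries scaled to their coding transcripts, with a linear day or no stage term, with Alb in the fit and without both middle stages. That of Serpina10 is also lost without E16.5 alone (adjusted p = 0.0615) and without E18.5 alone (0.0545). Over 13 alternatives the adjusted p of each ran up to 0.954, and both differences stayed above 0. The spread behind these p-values is that between stages, not between animals, and limma draws it toward the spread of all tested genes. Fits without E14.5, without both middle stages or with Alb added leave 1 or 2 residual degrees of freedom. Their SEs rest largely on other genes.

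Serpina6, corticosteroid-binding globulin, which carries glucocorticoids in blood and inhibits no protease, reached the highest level of any serpin, with 13.8, 422, 656 and 268 TPM in CPF kidneys against 0.663, 109, 1.39 and 11.8 TPM in DMSO kidneys. The DMSO value of E14.5 exceeded the CPF value of E12.5, and the difference was widest at E16.5. It averaged 4.40 ± 1.15 on the log2 scale, with a limma adjusted p of 0.377. It was called without E14.5 (5.22 ± 0.69, adjusted p = 0.00102), without E16.5 (3.16 ± 0.41, 0.0123) and without both (3.77 ± 0.71, 0.000397), the last a choice made after seeing the data that leaves 1 residual degree of freedom. The stage differences of Serpina6 left without E14.5 were 3.15, 8.11 and 4.39, wider apart than the SE of 0.69 conveys. Serpina6 lies at chr12:103646630-103657218 beside Serpina10 (chr12:103616675-103631490) in GRCm38.p6.

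Serpina1b, one of several mouse copies of alpha-1-antitrypsin, the inhibitor of neutrophil elastase, had 0.994, 29.8, 44.8 and 5.59 TPM in CPF kidneys, against 0.453, 4.36, 0.900 and 0.256 TPM in DMSO kidneys. Antithrombin, Serpinc1, which blocks thrombin and factor Xa, had 3.46, 28.1, 37.5 and 4.27 TPM in CPF kidneys, against 0.859, 9.46, 1.19 and 0.338 TPM in DMSO kidneys. Heparin cofactor II, Serpind1, a second thrombin inhibitor, had 4.20, 42.5, 40.4 and 3.59 TPM in CPF kidneys, against 1.84, 16.49, 1.51 and 1.22 TPM in DMSO kidneys. All 3 were highest in CPF at E14.5 and E16.5 and, among DMSO libraries, at E14.5, and none separated the groups. Their differences of 2.49 ± 0.59, 2.21 ± 0.45 and 1.82 ± 0.51 did not pass the threshold (limma adjusted p of 0.186, 0.101 and 0.240). Without E14.5 all 3 were called, at 2.48 ± 0.43, 2.46 ± 0.43 and 1.99 ± 0.44 (adjusted p of 4.04e-06, 5.49e-06 and 0.00121), and Serpina1b also without E12.5 (3.17 ± 0.45, 0.0054). For Serpina1b the stage differences left without E14.5 were 0.456, 4.59 and 2.39, again wider apart than its SE conveys. With the 5 TPM filter Serpina1b and Serpinc1 were called (0.0394 and 0.0187), as was Serpinc1 with the pseudocount of 0.1 TPM (0.0368). Without E16.5 Serpind1 was at 1.08 ± 0.37, and without both middle stages the 3 were at 1.42 ± 0.52, 1.62 ± 0.55 and 0.96 ± 0.59, uncalled. Transcripts of Serpina1a to Serpina1e are 78.3 to 96.6% identical, and 18.2 to 58.5% of their windows of 100 bases recur in another gene, so how counts were divided among these copies is uncertain. No such window of Serpina6, Serpina10, Serpinc1, Serpind1 or Serpinf2 recurs in another gene.

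Of the 14 plasma serpins 8 were tested, and all 8 had differences above 0, with a median of 2.17, beside a median of 0.15 over all tested genes. Serpina1c (1.22 ± 0.37) and Serpina1d (1.30 ± 0.52) reached at most 3.64 and 8.62 TPM, and Serpina1c, like Serpina3h, Serpina3n and Serpinb8, passed the filter through CPF libraries alone, which fixes its direction. Scaling libraries to coding transcripts moves the median of all genes to -0.0074, so differences are to be read relative to the 0.15 of the deposited scale. Over all 24 tested serpins, 11 were higher in CPF at all 4 stages, beside 13.8% of tested genes, and 0 had every CPF library above every DMSO library, beside 2.66%; the opposite order held for 0.336% of genes. At an unadjusted p under 0.05, 12 serpins were higher and 0 lower, beside 8.15% and 1.4% of tested genes. Without the 4 serpins that passed the filter through CPF libraries alone, 9 of 20 were higher at all 4 stages and 10 of 20 at that p.

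**Figure D2:**
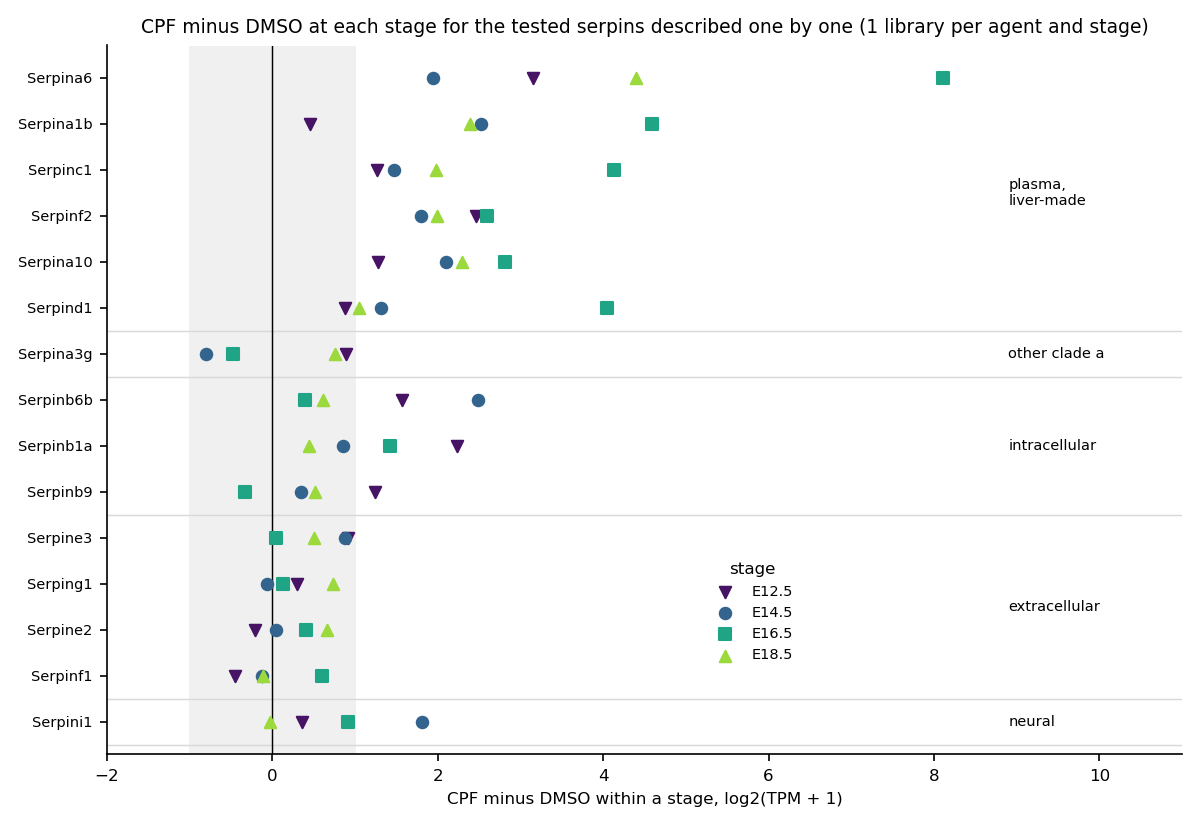
CPF minus DMSO within each stage (x axis, log2(TPM + 1)) for the 15 tested serpins described one by one (rows, grouped by role), with 1 symbol per stage and the grey band from -1 to 1. The plasma serpins reach 8.11 for Serpina6 at E16.5, whereas all points of the extracellular serpins shown lie inside the band.

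Within single stages, where each agent has 1 library and no test is possible, serpins past a difference of 1 were counted. At E12.5, 7 of 24 serpins were past it upward and 0 downward, beside 6.04% and 2.5% of tested genes. At E14.5 the counts were 10 and 0, beside 6.18% and 2.16%, and at E16.5 they were 10 and 1, beside 7.44% and 3.2%. The 1 lower gene was Serpinb6c, with 0.0613 TPM in CPF and 1.17 TPM in DMSO at E16.5. At E18.5, 8 serpins were higher and 0 lower, beside 20.4% and 2.02%, a stage at which the median of all tested genes was itself 0.53. Some upward counts include members that passed the filter through CPF libraries alone, which fixes their direction. These were Serpina1c at E14.5 (2.03) and E16.5 (2.06), Serpina3n at E16.5 (1.74) and E18.5 (1.55) and Serpina3h at E18.5 (1.19).

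Alb, the carrier protein of plasma and the measure of liver RNA used here, had 60.9, 1668, 2036 and 373 TPM in CPF kidneys, against 3.89, 278, 5.77 and 2.03 TPM in DMSO kidneys. The adrenal cortex list, like Alb, was higher in CPF at all 4 stages, and its part in these values was not tested. The liver markers that are no serpins (18 genes, of which only Ahsg was at 0 throughout) summed to 242 to 6609 TPM in CPF and 28.1 to 1125 TPM in DMSO libraries, higher in CPF at all 4 stages. Some serpins followed Alb closely in rank. Spearman's rho over the 8 libraries was 1 for Serpina1b, 0.976 for Serpinc1 and 0.929 for Serpina6, against 0.667 for both Serpinf2 and Serpina10; the libraries share stage and agent, so these are descriptions.

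**Figure D3:**
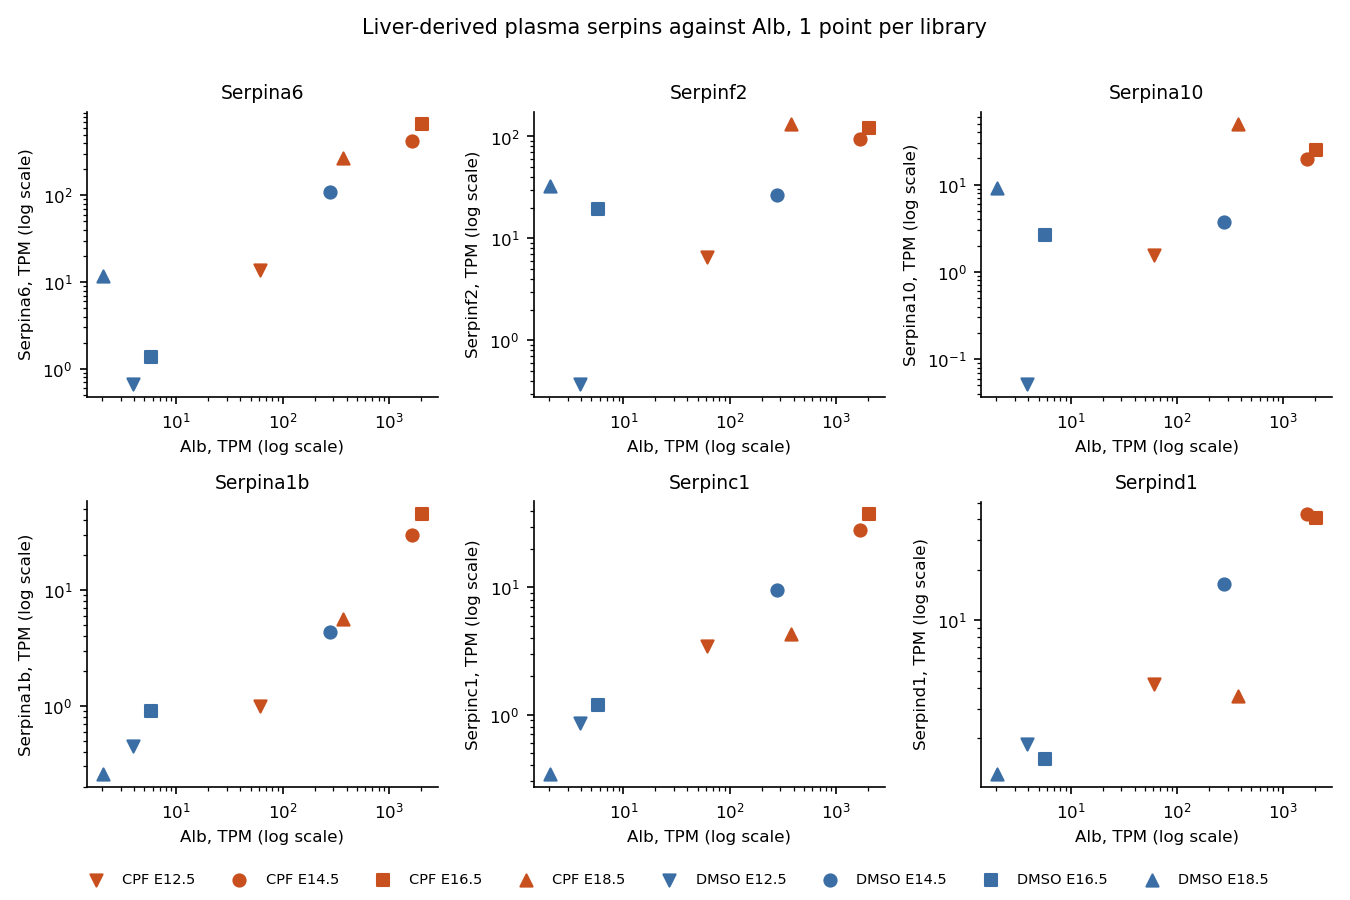
TPM of 6 plasma serpins (y axes, log scale) against TPM of Alb (x axes, log scale), 1 point per library, CPF in orange and DMSO in blue, with a symbol for each stage. Serpina1b runs in the same order as Alb in all 8 libraries, whereas Serpinf2 and Serpina10 have 32.4 and 9.15 TPM in the DMSO library of E18.5, where Alb is at 2.03 TPM.

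With embryonic day in the fit, 6 serpins were called higher with log2(Alb + 1) and 0 lower, beside 0.526% of 13676 tested genes called higher and 0 called lower. They are all plasma serpins. At an unadjusted p under 0.05, 12 were higher and 0 lower, beside 9.8% and 0.921%. These 12 include Serpina1c and Serpina3n, which passed the filter through CPF libraries alone. Since Alb was higher in CPF at all stages, the direction of these 2 is not independent of the filter. The slopes, in log2 units per log2 unit of Alb, were 0.83 ± 0.07 for Serpina6 (limma adjusted p = 0.000367), 0.49 ± 0.07 for Serpina1b (0.00987), 0.46 ± 0.05 for Serpinc1 (0.00243), 0.43 ± 0.07 for Serpind1 (0.0219), 0.41 ± 0.05 for Serpinf2 (0.00407) and 0.33 ± 0.05 for Serpina10 (0.0126). Of the 16 other liver markers tested, 15 were called in the same fit. Without the E16.5 stage 1 of the 24 serpins was called, and without E12.5 there were 3. With stage and agent beside Alb only Serpina6 remained called, at 0.92 ± 0.11. That fit leaves 2 residual degrees of freedom, so its SE rests largely on other genes. In the fit with embryonic day, Serpina6 was not called without E12.5 or without E14.5. The fit with embryonic day holds no agent term, and Alb was higher in CPF at every stage. None of the 6 slopes from it can therefore be told apart from the agent.

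A ratio to Alb shows where a serpin and albumin part. Per 100 TPM of Alb, Serpinf2 had 10.8, 5.70, 6.00 and 35.2 TPM in CPF libraries, against 9.48, 9.60, 336 and 1591 TPM in DMSO libraries. Serpina10 had 2.54, 1.17, 1.22 and 13.1 TPM per 100 TPM of Alb in CPF libraries, against 1.32, 1.36, 46.2 and 450 TPM in DMSO libraries. For both, the CPF libraries of the first 3 stages and the DMSO libraries of E12.5 and E14.5 lay close together, and the later DMSO libraries lay far above, at stages where Alb was at 5.77 and 2.03 TPM. Serpina6 kept 22.6, 25.3, 32.2 and 71.8 TPM per 100 TPM of Alb in CPF libraries, against 17.0, 39.3, 23.998 and 579 TPM in DMSO libraries, and was highest in the last library of each group. Serpina1b stayed at 1.499 to 2.20 in CPF libraries, against 1.57 to 15.6 in DMSO libraries. High late DMSO ratios were not confined to serpins. The liver marker Afp was at 810 and 1285 in the DMSO libraries of E16.5 and E18.5, against 72.5 to 171 elsewhere. Another, Ttr, was at 218 in the DMSO library of E18.5, against 1.70 to 10.9 elsewhere, whereas Apoa1 stayed at 10.9 to 30.8 throughout.

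**Figure D4:**
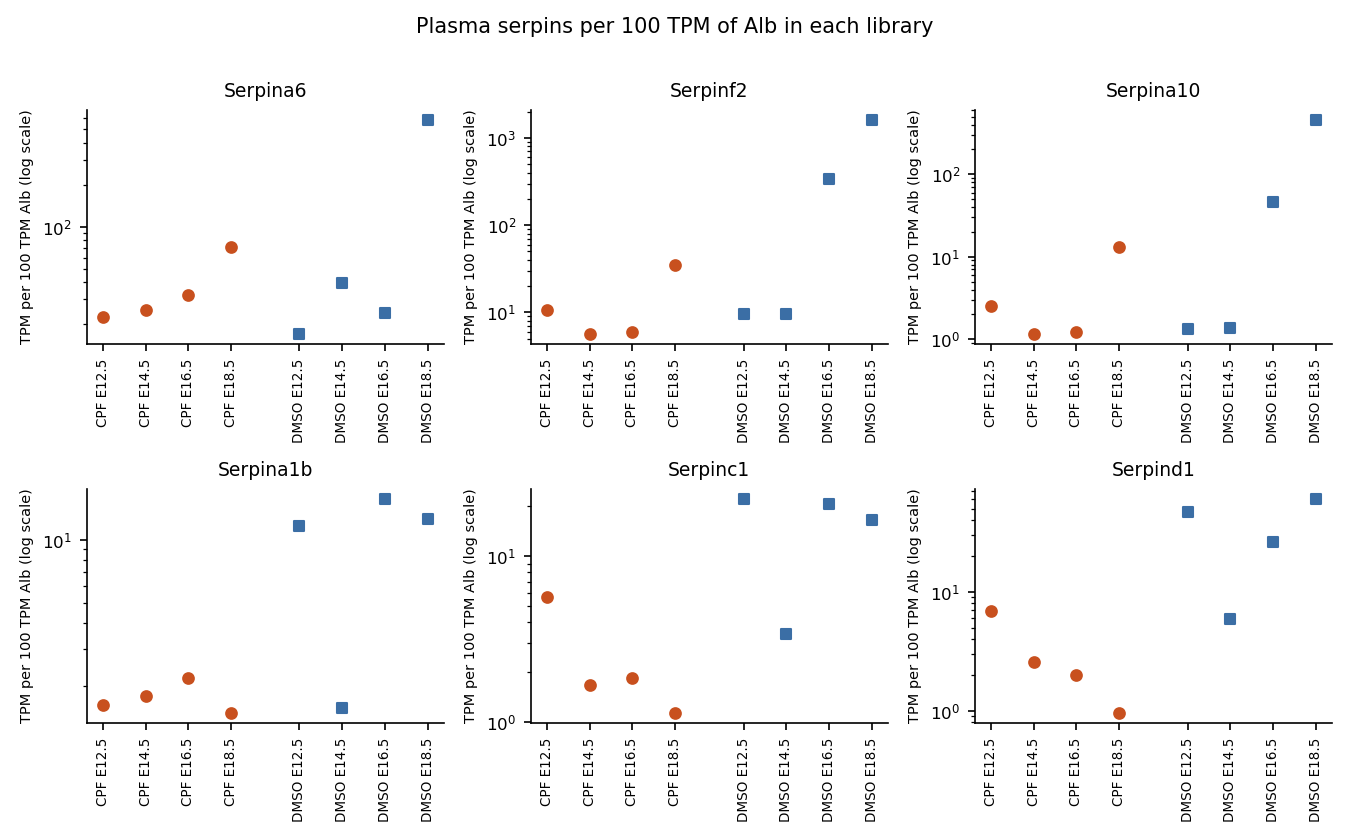
TPM of 6 plasma serpins per 100 TPM of Alb (y axes, log scale) in each library, CPF at the left and DMSO at the right of each panel. Serpinf2 and Serpina10 are highest in the DMSO libraries of E16.5 and E18.5, up to 1591 and 450 TPM per 100 TPM of Alb, while Serpina1b stays within 1.499 to 2.20 in all CPF libraries.

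Adding log2(Alb + 1) to stage and agent left 2 residual degrees of freedom and gave other differences between the agents. They were -0.51 ± 0.64 for Serpina6, 0.18 ± 0.86 for Serpina1b, 0.0038 ± 0.85 for Serpinc1 and -0.23 ± 0.82 for Serpind1. Serpinf2 was at 1.84 ± 0.67 and Serpina10 at 1.18 ± 0.82, with limma adjusted p of 0.313 and 0.941. The only serpin called in that fit was Serpinb6b, at 3.14 ± 0.79 (limma adjusted p = 0.0152), against 1.27 ± 0.36 without Alb. Its slope on Alb in that fit was -0.35, against 0.16 with embryonic day alone beside Alb. Over all 13676 tested genes 94 were called higher and 16 lower. Since Alb was higher in CPF at all 4 stages, the part of liver RNA in the differences between the agents cannot be told apart from that of the agent.

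**Figure D5:**
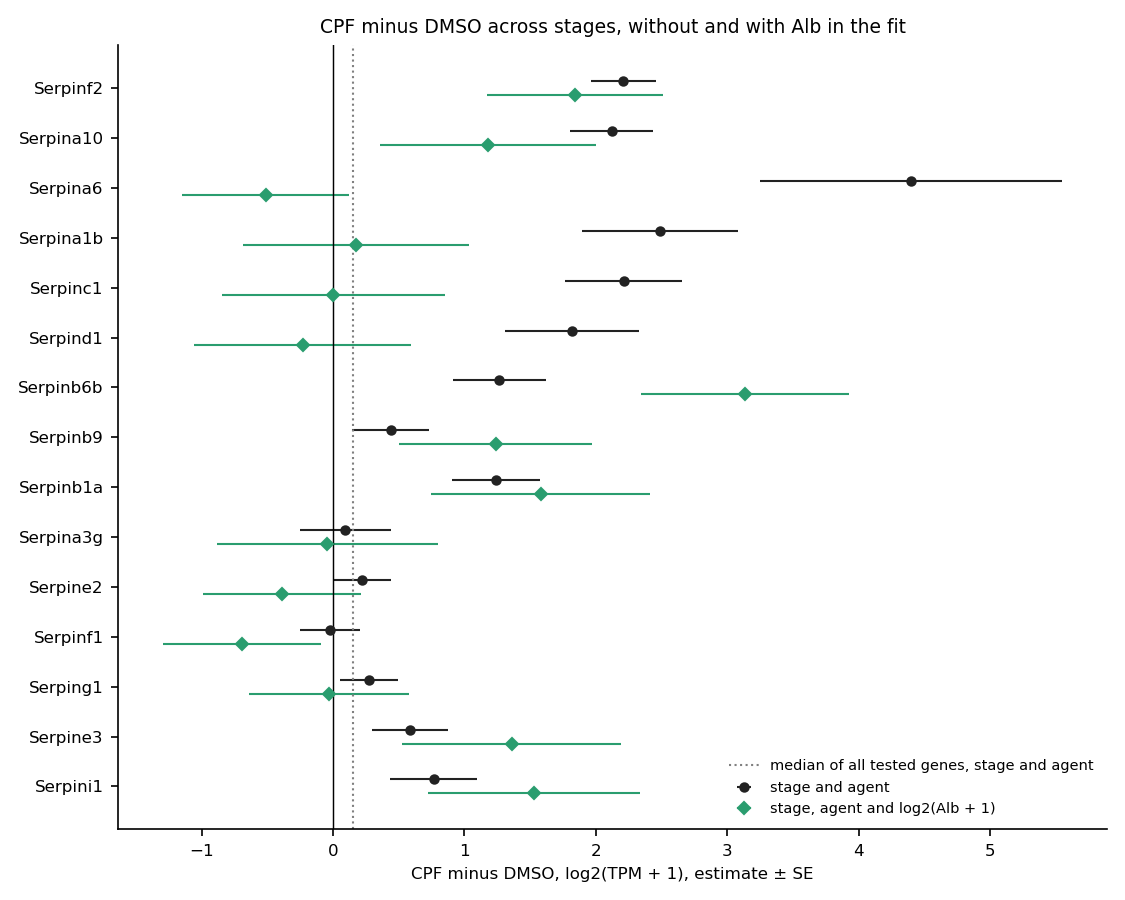
CPF minus DMSO across stages (x axis, log2(TPM + 1), estimate ± SE over 4 stage pairs) for 15 tested serpins, from the fit with stage and agent (black circles) and with log2(Alb + 1) added (green diamonds); the dotted line is the median of all tested genes. Serpina6 is at -0.51 with Alb in the fit, against 4.40 without it, while Serpinf2 is at 1.84.

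Between the last and the first stage, 4 of 24 serpins were higher and 0 lower at E18.5 than at E12.5 over both agents, beside 4.67% and 3.73% of tested genes, 8.4% in all. At an unadjusted p under 0.05, 7 were higher and 0 lower, beside 9.67% and 15%. Serpinf2 was higher by 4.37 ± 0.35 (limma adjusted p = 3.32e-05) and Serpina10 by 3.78 ± 0.44 (0.000323), the same 2 genes that differed between the agents. The other 2 were the intracellular Serpinb6b, by 2.69 ± 0.50 (0.00619), and Serpina3g, by 1.81 ± 0.49 (0.0391), a mouse serpin that acts on cysteine cathepsins. Serpina6 differed by 3.56 ± 1.63 and Serpine2 by 0.90 ± 0.31, neither past the threshold, with adjusted p of 0.284 and 0.0967. Serpina6 was called with Alb in the fit (2.69 ± 0.37, 5.59e-11), without E14.5 (0.0141), without E16.5 (0.000712) and without both (3.71e-05). Serpine2 was called with coding scaling (0.0126), quantile normalization (0.0148) and a linear day (0.0326). Serpinf2 and Serpina10 were called in all 10 alternatives, whereas the call of Serpinb6b was lost without a filter (0.0609) and that of Serpina3g without a filter (0.140), with quantile normalization (0.0607) and without both middle stages (0.0974). Over all genes the calls were 639 higher and 510 lower, and 1020 and 419 with libraries scaled to coding transcripts. Slc34a1, a phosphate transporter of the mature proximal tubule, had 0.0329, 1.56, 37.1 and 551 TPM in CPF kidneys, against 0, 0.866, 41.9 and 83.9 TPM in DMSO kidneys. Its highest value in either group was at E18.5, and its part in the stage difference of the serpins was not tested.

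The slope over embryonic day differed between the agents for 0 of 24 serpins and 0 of 13677 genes by limma, in every one of the 9 alternatives too. At an unadjusted p under 0.05, 2 serpins had a higher slope in CPF, beside 24.9% of tested genes, and 0 a lower one, beside 1.56%. They were Serpine2, with 0.15 ± 0.05 log2 units per day more in CPF, and Serpina3n, with 0.30 ± 0.13 per day, and are named because they are so few. Serpina3n passed the filter through CPF libraries alone, with 0.0485, 0.768, 2.45 and 2.01 TPM there in stage order. In DMSO libraries it had 0, 0.568, 0.0323 and 0.0292 TPM. Its higher slope in CPF is thus not independent of the filter. The median over all tested genes was itself 0.11 per day, and Serpine2 was at 0.067 with coding scaling and 0.019 with quantile normalization, where the medians were 0.039 and 0.01.

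Among the extracellular serpins, 3 were abundant in both groups. Serpine2, protease nexin-1, which inhibits thrombin and urokinase at cell surfaces, had 44.1, 51.7, 81.2 and 112 TPM in CPF kidneys, against 51.0, 50.1, 61.2 and 71.0 TPM in DMSO kidneys. Serpinf1, pigment epithelium-derived factor, which inhibits no protease and restrains vessel growth, had 57.9, 64.4, 84.5 and 44.2 TPM in CPF kidneys, against 79.5, 70.3, 55.2 and 47.8 TPM in DMSO kidneys. Serping1, the inhibitor of the first complement proteases, had 53.5, 47.8, 57.7 and 79.4 TPM in CPF kidneys, against 43.4, 50.1, 52.8 and 47.3 TPM in DMSO kidneys. The groups overlap for all 3, and no gene of the list was called. Their CPF minus DMSO differences were 0.22 ± 0.22, -0.02 ± 0.23 and 0.27 ± 0.22, and that of Serpinf1 changed sign in 3 of the 4 fits that leave out a stage. Serpine3 had 9.19, 11.3, 5.00 and 5.92 TPM in CPF kidneys, against 4.39, 5.65, 4.83 and 3.88 TPM in DMSO kidneys, higher in CPF at 4 of 4 stages by 0.59 ± 0.29 (limma adjusted p = 0.570). The median of this list was 0.25, beside 0.15 over all tested genes. Serpinf1 (chr11:75410029-75422623) and Serpinf2 (chr11:75431736-75439501) are neighbours, and only Serpinf2 was called between the agents; a difference between the 2 genes was not tested.

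Of the 27 intracellular serpins 6 were tested and 3 passed 10 TPM. Serpinb9, the mouse inhibitor of granzyme B, had 13.8, 19.1, 13.1 and 24.4 TPM in CPF kidneys, against 5.27, 14.9, 16.8 and 16.8 TPM in DMSO kidneys, and was lower in CPF at E16.5 alone. Serpinb6b had 4.30, 26.02, 16.0 and 23.6 TPM in CPF kidneys, against 0.782, 3.82, 11.95 and 15.0 TPM in DMSO kidneys. Serpinb1a, an inhibitor of leukocyte elastase, had 5.70, 11.3, 14.6 and 8.25 TPM in CPF kidneys, against 0.421, 5.77, 4.79 and 5.81 TPM in DMSO kidneys. Serpinb6b and Serpinb1a were higher in CPF at all 4 stages, with overlapping groups, by 1.27 ± 0.36 and 1.24 ± 0.33 (limma adjusted p of 0.192 and 0.172); Serpinb9 differed by 0.44 ± 0.29 (0.728). The median of the 6 tested genes was 0.37. Macrophage markers (8 genes, Cd68 at 0 throughout) summed to 104 to 215 TPM in CPF and 46.1 to 114 TPM in DMSO libraries, and those of neutrophils and mast cells (8 genes, S100a9 at 0) to 17.5 to 79.1 TPM and 1.12 to 28.4 TPM, higher in CPF at all 4 stages. Their part in the values of Serpinb1a, Serpinb6b and Serpinb9 was not tested. Serpina3g of clade a had 3.15, 3.73, 5.87 and 12.9 TPM in CPF kidneys, against 1.24, 7.23, 8.52 and 7.23 TPM in DMSO kidneys, and its difference of 0.10 ± 0.35 turned negative with quantile normalization, with coding scaling, with Alb in the fit and without E12.5 or E18.5.

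Serpini1, neuroserpin, which inhibits tissue plasminogen activator in the nervous system, had 6.13, 22.0, 14.2 and 6.38 TPM in CPF kidneys, against 4.56, 5.54, 7.04 and 6.504 TPM in DMSO kidneys. It stood out in CPF at E14.5 and E16.5 and was level at E18.5, with a difference of 0.77 ± 0.33 (limma adjusted p = 0.478). The difference was 0.42 ± 0.43 without E14.5 and 0.17 ± 0.69 without both middle stages. Neuron markers (6 genes) summed to 27.4, 165, 98.3 and 1.502 TPM in CPF libraries, against 16.2, 70.1, 4.77 and 3.27 TPM in DMSO libraries, and their part was not tested. Serpini2, a serpin of the exocrine pancreas, had 0.214, 0.266, 37.0 and 0 TPM in CPF kidneys, against 0, 0.0695, 0 and 0.300 TPM in DMSO kidneys. A single library, CPF at E16.5, held nearly all of it, and the gene did not pass the filter. Pancreas markers (12 genes) summed to 1909 TPM in that library and to 37.1 to 67.2 TPM in the other 7, with Cpa1, a digestive carboxypeptidase, at 548 TPM there and at most 8.21 TPM elsewhere. Serpini2 and the pancreas markers thus peaked in the same library, and Alb (2036 TPM) was highest there as well.

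By clade, the sums over members in stage order were 21.9, 500.5, 752 and 354 TPM in CPF against 3.30, 129, 16.3 and 30.7 TPM in DMSO libraries for clade a (25 genes). Clade b (27 genes) gave 30.9, 66.1, 57.1 and 60.7 TPM in CPF against 11.3, 30.8, 40.6 and 42.0 TPM in DMSO libraries. Clade e (3 genes) gave 54.4, 64.1, 89.4 and 121 TPM in CPF against 56.3, 56.1, 72.3 and 75.9 TPM in DMSO libraries. Clade f (2 genes) gave 64.4, 159, 207 and 175 TPM in CPF against 79.9, 96.99, 74.6 and 80.2 TPM in DMSO libraries, with the excess in CPF mostly in Serpinf2. Clades c, d, g and h have 1 gene each, and clade i has 2. A total of 32 members reached 1 TPM in some library, 16 are described one by one, and 4 were listed at 0 in all libraries (Serpina11, Serpina1f, Serpina3f and Serpinb2). The 47 members not described one by one comprise 21 of clade a, with at most 9.20 TPM, 24 of clade b, with at most 7.53 TPM, 1 of clade e and Serpinh1. Serpinh1, the chaperone of procollagen known as HSP47, was listed at 0.921 to 1.73 TPM in CPF and 0.562 to 1.88 TPM in DMSO libraries; it has 4 RefSeq transcripts that share 91.3 to 97.2% of their windows of 100 bases, so these low values say little about its expression.

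Partners of the serpins were counted beside them. Of 21 coagulation and fibrinolysis genes 15 were tested, and 0 were called between the agents. All 15 had differences above 0 (median 1.54), as did 72.6% of all tested genes. With Alb, 8 were called higher, beside 0.526% of all tested genes. Fga, Fgb, Fgg, F2, Kng1 and Vtn are on the liver marker list too, so this count in part repeats that of the liver markers. The fibrinogen chains Fgb and Fgg, also liver markers, differed between CPF and DMSO by 3.42 ± 0.67 and 3.74 ± 0.64, without passing the threshold (limma adjusted p of 0.152 and 0.116), and their slopes on Alb were 0.67 ± 0.04 and 0.69 ± 0.03 (1.99e-05 and 2.93e-06). Plasminogen (Plg), the target of Serpinf2 once activated, had a slope of 0.58 ± 0.05 and vitronectin (Vtn), a plasma and matrix adhesion protein, one of 0.60 ± 0.05 (0.000324 for both). Kng2 and F13b, of contact activation and clot cross-linking, were higher at E18.5 than at E12.5 by 2.34 ± 0.53 and 1.56 ± 0.43 (0.0185 and 0.0431). Over all tested genes 4.67% were called higher and 3.73% lower in that comparison, the shares for the lists that follow too.

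Of 10 genes of plasminogen activation 9 were tested and 0 were called between the agents or with Alb, with a median difference between the agents of 0.35. Urokinase (Plau), which Serpine2 inhibits, was higher at E18.5 than at E12.5 by 3.42 ± 0.72 (limma adjusted p = 0.0338), the thrombin receptor thrombomodulin (Thbd) by 1.98 ± 0.45 (0.0175) and the membrane protease Prss8 by 2.01 ± 0.53 (0.0479). Among 7 tested genes of complement C1 and the lectin pathway, C1q subunits included, 0 were called between the agents. C1ra was higher at E18.5 by 2.80 ± 0.43 (limma adjusted p = 0.00169) and Masp1 lower, at -1.72 ± 0.37 (0.0136). Of 12 tested lysosomal and leukocyte proteases 0 were called between the agents, and the cathepsin Ctsh and legumain (Lgmn) were higher at E18.5 by 3.13 ± 0.38 (0.000413) and 1.65 ± 0.41 (0.0307). Of 14 tested collagen and collagen-processing genes, the clients and co-workers of Serpinh1, 0 were called in any of the comparisons, with a median difference between the agents of 0.35. Col3a1 and P4hb, the most abundant of these, differed between the agents by 0.56 ± 0.21 and 0.35 ± 0.26 (limma adjusted p of 0.399 and 0.765). At an unadjusted p under 0.05, 14 of 15 coagulation genes and 2 of 9 genes of plasminogen activation were higher in CPF. So were 3 of 7 C1 and lectin pathway genes, 8 of 12 lysosomal and leukocyte proteases and 2 of 14 collagen genes. In each list 0 were lower, beside 8.15% higher and 1.4% lower over all tested genes. C1qa is on the macrophage marker list too, and the leukocyte protease Elane on that of neutrophils and mast cells.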

How the data were processed

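Total RNA of embryonic kidneys (2 μg input per the labels' protocols) was sequenced in 8 libraries. Trimmomatic, STAR and mm10 are named, without versions, in the submitters' processing notes; no source used here names the program that counted reads. The authors deposited TPM values per RefSeq transcript, 1 table per library with 32862 transcripts. Of the low values, 54.1 to 59.4% were whole multiples of 1 step within a tolerance of 0.02, so reads were not recovered and no count test was run. TPM was summed per symbol (52 symbols listed as dates were restored from RefSeq). Samples were grouped by the labels' agent and stage, with 1 library per group. Genes with at least 1 TPM in at least 2 libraries were tested with limma 3.58.1 (R 4.3.3, trend and robust) on log2(TPM + 1): stage and agent (3 residual degrees of freedom), agent by day (4), and day with Alb (5). The Benjamini-Hochberg adjustment covered every tested gene (threshold 0.05). Procedures were tested on simulated data. Members reaching 10 TPM or called in a fit are described one by one; of partner lists, called genes (at most 4 by p) or the 2 with the highest mean. Members and lists were chosen with earlier results of these data known. Alternatives were another pseudocount, filters, scalings, covariates and stages left out. Promoter windows come from RefSeq tables (GRCm38.p6) and transcript sequences from GENCODE M21 through RefSeq links; the promoters of Serpina6 and Serpina10 were not used here. The values of 1 member are not reported here.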

Additional observations from a re-analysis of the deposited data

How the results depend on the processing

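The agent comparison is paired by stage, which is its block; without stage in the fit 0 serpins were called. Against 2 serpins called higher in CPF, 0 were called with no filter, quantile normalization, coding scaling or a linear day, 1 with Alb as a covariate, 1 without the E14.5 and E16.5 pairs, 4 with the 5 TPM filter, and 1 to 6 when 1 stage was left out. Between E18.5 and E12.5, 7 serpins were called with Alb as a covariate and 2 without a filter, against 4. With Alb as the measure, 3 were called with quantile normalization, 1 with stage and agent beside Alb, 1 without both middle stages and 1 to 6 with 1 stage left out, against 6. Within E12.5, a pseudocount of 0.1 TPM gave 12 serpins higher and 1 lower past 2-fold, against 7 and 0. The shares of all tested genes were then 11.3% and 4.99%, against 6.04% and 2.5%. Within E16.5, 2 serpins were lower with coding scaling and 0 with the 5 TPM filter, against 1. Of all tested genes 5.39% and 2.54% were lower under these settings, against 3.2%.

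Estimates that changed sign were all uncalled. In CPF minus DMSO, Alb as a covariate gave -0.51 for Serpina6, -0.23 for Serpind1, -0.39 for Serpine2, -0.032 for Serping1 and -0.044 for Serpina3g. Serpina3g was at -0.058 with coding scaling, -0.22 with quantile normalization and -0.17 and -0.13 without E12.5 and without E18.5 (range with 1 stage left out -0.17 to 0.39). Serpinf1 was at 0.12, 0.014 and 0.0086 without E12.5, E14.5 or E18.5 (range -0.23 to 0.12). With stage and agent beside Alb, the slope on Alb was -0.063 for Serpinb1a, -0.35 for Serpinb6b, -0.15 for Serpinb9, -0.14 for Serpine3 and -0.14 for Serpini1. Over all genes, calls between the agents numbered 22, against 110 with Alb, 1 with coding scaling, 83 with the pseudocount of 0.1 TPM, 98 with the 5 TPM filter, 34 without both middle stages, up to 221 with 1 stage left out and 0 in the other 4. Calls between stages numbered 1149, against 2066 with Alb and 394 without a filter, and calls with Alb 72, against 38 with Alb alone, 150 with the liver list, 36 without a filter or with quantile normalization, and as few as 14 with 1 stage left out. The cause was not tested. With 1 library per agent and stage, no spread between animals is known, and TPM gives no counting error.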

Other observations

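Serpina3k, Serpinb5 and Serpina3a had low listed values, and each was high in a single CPF library. They fell outside the rule for members described one by one and were chosen after their values were seen. Serpina3k, a plasma serpin of liver, had 0, 0, 0 and 7.80 TPM in CPF libraries in stage order, against 0, 0, 0.123 and 0.0737 TPM in DMSO libraries. It was thus listed at 0 in the E14.5 and E16.5 CPF libraries, where Alb was at 1668 and 2036 TPM, and appeared at E18.5, where Alb was at 373 TPM. Serpinb5, maspin, a serpin of epithelia, had 0.276, 0.661, 7.53 and 0.408 TPM in CPF libraries, against 0, 0.192, 0.342 and 0.308 TPM in DMSO libraries. Keratinocyte markers (5 genes) summed to 48.5 TPM in the CPF library of E16.5, against 8.29 to 35.1 TPM in the other 7 libraries. The 35.1 TPM were in the CPF library of E14.5, where Serpinb5 was at 0.661 TPM. Krt5, a keratin of basal epithelium, was at 36.3 TPM in the CPF library of E16.5 and 8.70 TPM in that of E14.5. Another keratin, Krt14, went the other way, with 3.77 TPM in the CPF library of E16.5 and 12.4 TPM in that of E14.5. Serpina3a has 2 RefSeq transcripts, so a low value of it is only a listed value. It had 0.217, 9.20, 0.828 and 0.225 TPM in CPF libraries, against 0, 0, 0.109 and 0.0326 TPM in DMSO libraries. In the same CPF library of E14.5 the gonad and germ cell markers (8 genes) summed to 210 TPM, against 8.19 to 52.3 TPM in the other 7 libraries, with Dppa3, a germ cell gene, at 115 TPM. The part of these markers in the 3 serpins was not tested.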
